A study of Mus musculus with 10 samples.

Results

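The 32 genes described here mark the steps by which oligodendrocytes, the cells that wrap axons of the central nervous system in myelin, arise from dividing precursors. They were chosen by name, with earlier results of these data known, and all 32 were found in a table of 30935 genes. 11 are grouped here as precursor-stage genes (the transcription factors Olig1, Olig2, Sox10, Nkx2-2 and Nkx6-2, and the precursor genes Pdgfra, Cspg4, Lhfpl3, C1ql1, Ptprz1 and Neu4). The transcription factors are not confined to precursors, since Sox10 and Olig2 also act when myelin genes are switched on. The level of this group is therefore not a measure of precursors alone. 3 mark newly formed oligodendrocytes (Gpr17, Bcas1 and Enpp6), and 18 belong to myelin or to the cells that make it. 29 members had enough counts to be tested, and Nkx6-2, Opalin and Ermn did not.

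Gene counts came from RNA sequencing of mouse cerebral cortex at postnatal day 8. 5 libraries were from mice with the genotype label 2xHAR.505 Knockout, called HAR.505 knockout here, which are homozygous for a deletion of the element (Rbfox1 ΔHAR.505/ΔHAR.505, replicates 1, 3, 5, 6 and 8). The other 5 were from wild-type mice with an intact locus (Rbfox1 +/+, replicates 2, 4, 5, 6 and 7). Human accelerated regions such as HAR.505 are conserved sequences that changed unusually fast in the human lineage, and the series places its elements among enhancers of RBFOX1, a neuronal splicing regulator gene. Neither strain and sex nor any litters are given in the sources used here.

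In the mouse forebrain, precursors divide in response to platelet-derived growth factor through the receptor that Pdgfra encodes. Cells that leave the cycle pass through a short premyelinating state marked by Gpr17, Bcas1 and Enpp6, and then switch on myelin genes under the control of Sox10, Olig2 and Myrf. Myelin appears later in the cortex than in the fibre tracts below it, so a cortical dissection in the second postnatal week holds many precursors and few mature cells. The data show how far the lineage had come by this day and whether its genes differed between the genotypes.

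Library totals ran from 16479594 to 22391943 counts, so that 0 counts in a library allow a level of up to 0.135 to 0.183 CPM (3 counts per library, counting error only). CPM are read counts on a common library scale, set with TMM factors. Rbfox1 itself averaged 214 CPM in knockout and 223 CPM in wild-type cortex (log2 fold change -0.06, SE 0.063, edgeR adjusted p = 0.88), and gene counts cannot show the deletion of the element. Markers of tissue next to the cortex differed between the genotypes. The summed level of 15 choroid plexus and ependymal markers was 19.97 to 238 CPM in knockout and 261 to 323 CPM in wild-type libraries, and that of 15 striatal markers 364 to 502 CPM in knockout and 447 to 598 CPM in wild-type libraries. All markers of both lists were detected, and 2 of each passed the test, all lower in knockout: Penk and Six3 of the striatal list and Clic6 and Tmem72 of the choroid plexus list. Summed levels of 10 markers each overlapped between the genotypes for 6 other cell types. Astrocyte markers summed to 3945 to 4602 CPM in knockout and 3762 to 4293 CPM in wild type, microglial markers to 264 to 339 CPM in knockout and 266 to 295 CPM in wild type, and endothelial markers to 287 to 314 CPM in knockout and 277 to 314 CPM in wild type. Mural cell markers summed to 270 to 338 CPM in knockout and 272 to 306 CPM in wild type, neuronal markers to 6603 to 6842 CPM in knockout and 6382 to 6853 CPM in wild type, and ventricular zone markers to 234 to 290 CPM in knockout and 272 to 288 CPM in wild type. 7 erythroid markers summed to 386 to 693 CPM in knockout and 483 to 683 CPM in wild-type libraries.

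At postnatal day 8 the median level of the precursor-stage members was well above that of the myelin members, with wide ranges within each stage. Levels of different genes are given as CPM per kilobase of exon (CPM/kb), since longer transcripts collect more reads. The median over the 11 precursor-stage members was 11.4 ± 1.18 CPM/kb in knockout and 11.7 ± 1.19 CPM/kb in wild-type libraries, and that over the 3 newly formed members 11.0 ± 1.91 CPM/kb in knockout and 10.3 ± 0.78 CPM/kb in wild-type libraries (SD, n = 5 each). The 18 myelin members had a median of 1.54 ± 0.25 CPM/kb in knockout and 1.497 ± 0.24 CPM/kb in wild-type libraries. The newly formed median is the level of Bcas1, with Gpr17 higher (30.1 ± 2.58 CPM/kb in knockout, 28.0 ± 2.32 in wild type) and Enpp6 lower (1.41 ± 0.258 in knockout, 1.23 ± 0.162 in wild type), below the myelin median. Among the precursor-stage members, Cspg4 (2.80 ± 0.328 CPM/kb in knockout, 2.69 ± 0.242 in wild type), Nkx2-2 (2.38 ± 0.775 in knockout, 2.12 ± 0.347 in wild type) and Neu4 (1.80 ± 0.306 in knockout, 1.77 ± 0.226 in wild type) also lay low. The medians of the precursor-stage and newly formed members were above that of the myelin members in 10 of 10 libraries. The newly formed median was above the precursor-stage median in 2 libraries. Without division by length the newly formed median was the higher of the pair in both genotypes (41.5 against 35.4 CPM in knockout, 39.0 against 34.2 CPM in wild type), so their order depends on the scale.

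The myelin genes were not silent as a class, although Sirt2, named next, is also expressed by neurons. Cnp (22.9 ± 2.95 CPM/kb in knockout, 22.2 ± 3.04 in wild type), Sirt2 (20.2 ± 1.04 in knockout, 20.9 ± 1.03 in wild type) and Mbp (15.9 ± 2.34 in knockout, 15.3 ± 3.47 in wild type) were among the 8 members of highest level, beside Olig1, Ptprz1, Gpr17, Olig2 and Pdgfra. Mog, Gjc3, Mag, Fa2h, Tmem88b, Myrf, Mal and Mobp lay between 0.53 and 3.19 CPM/kb in both genotypes. Ermn, which encodes a cytoskeletal protein of late myelinating cells, and Opalin, a glycoprotein gene of mature oligodendrocytes, were the 2 lowest members, with means of at most 0.134 CPM/kb.

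**Figure D1:**
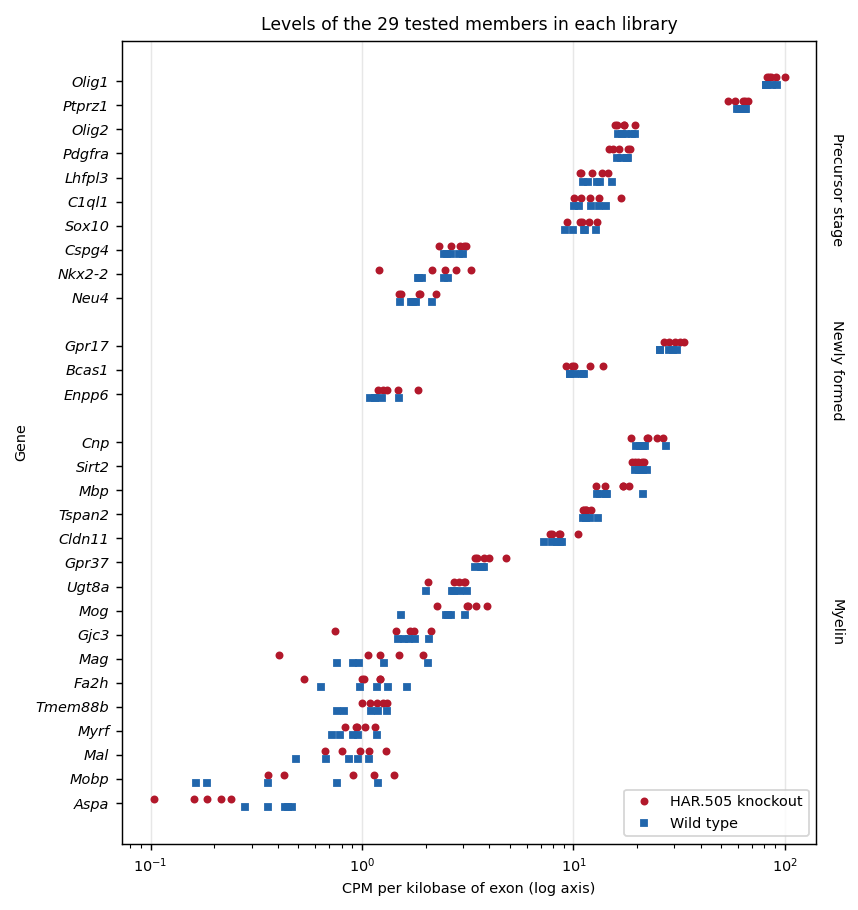
Level of each tested member in each library, as CPM per kilobase of exon on a log axis, with the members grouped by stage and ordered by their wild-type mean. Red circles are the 5 HAR.505 knockout libraries and blue squares the 5 wild-type libraries; the precursor-stage and newly formed members span about the same levels in both, and the myelin members run from Cnp near the top to Aspa, the lowest tested member, whose red points all lie left of its blue points.

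No member passed the edgeR quasi-likelihood test after Benjamini-Hochberg adjustment over all 15488 tested genes (0 of 29, against 0.381% of all tested genes past an adjusted p of 0.05). The count was 1 with DESeq2, namely Aspa, and 0 with limma-voom. 1 member, Aspa, had an unadjusted p under 0.05, against 8.71% of all tested genes, and it was lower in knockout. That count was 8 with the mean level of the striatal markers as a covariate and 5 with that of the choroid plexus and ependymal markers. It was 4 without wild-type replicate 5, without knockout replicates 3, 5 and 6, and with a replicate block. The block leaves only knockout and wild-type replicates 5 and 6 to bear on the genotype difference. After adjustment, 1 of all tested genes passed with the striatal covariate and 0 with the choroid covariate. The unadjusted share of all tested genes in these fits is not given here, so the counts are not read as a result about the members. The median log2 fold change of knockout over wild type was 0.06 over the 29 members and -0.0021 over all tested genes, with 69.0% of the members and 49.1% of all tested genes above 0. Fold changes ran from -1.13 (Aspa) to 0.68 (Mobp). In bulk tissue, fewer cells of a type and less RNA per cell cannot be told apart.

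These measurements limited the size of a change unevenly. For 23 of the 29 tested members the 95% interval of the fold change lay within 1.5-fold in either direction, and for 17 of them within 1.3-fold. For 2 members, Aspa and Mobp, it reached beyond 2-fold. In the precursor stage the intervals of all 10 tested members lay between 0.83-fold and 1.48-fold.

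**Figure D2:**
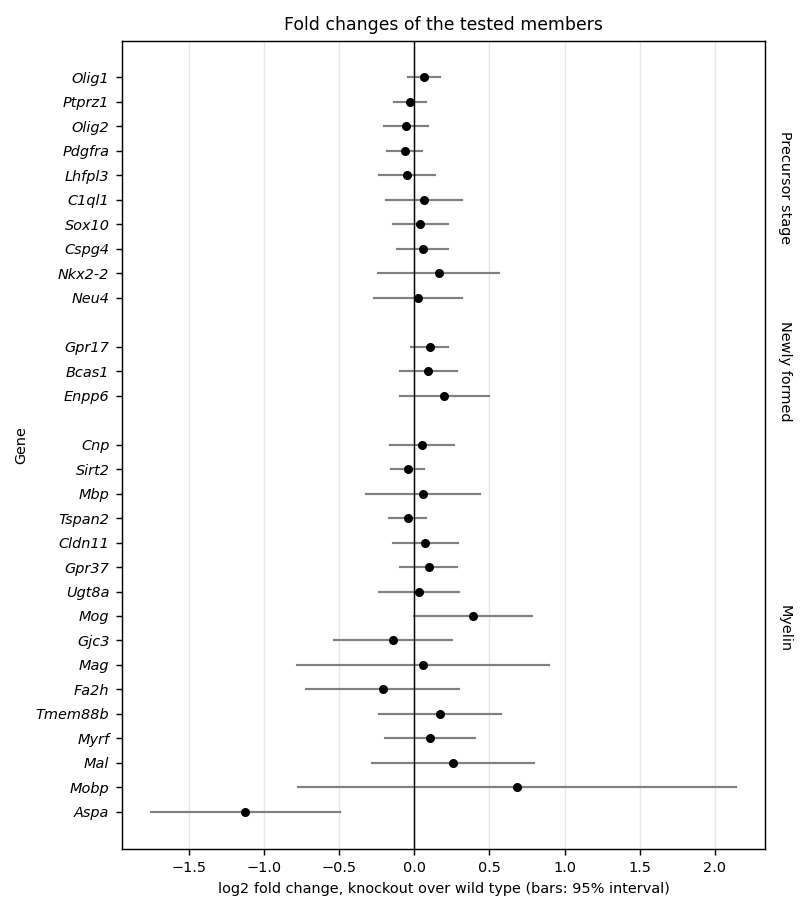
Log2 fold change of each tested member, knockout over wild type, with its 95% interval as a horizontal bar, grouped by stage. Intervals of the precursor-stage members are short and cross 0, those of Mag and Mobp are the widest, and the interval of Aspa lies wholly below 0.

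The lineage transcription factors were present in every library except for Nkx6-2. Olig1, whose basic helix-loop-helix product helps specify the lineage, was measured at 186, 181, 178, 215 and 196 CPM in knockout replicates 1, 3, 5, 6 and 8, against 187, 178, 199, 175 and 176 CPM in wild-type replicates 2, 4, 5, 6 and 7. The groups overlapped, and the highest value belonged to knockout replicate 6 (log2 fold change 0.06, SE 0.053, edgeR adjusted p = 0.83). Its partner Olig2, which is required to make oligodendrocytes, averaged 43.5 ± 3.85 CPM in knockout and 45.3 ± 3.32 CPM in wild type (SD, n = 5 each; log2 fold change -0.06). Sox10, a direct activator of myelin genes, averaged 34.1 ± 3.98 CPM in knockout and 33.2 ± 4.26 CPM in wild type (log2 fold change 0.04). Nkx2-2, a homeobox gene that times differentiation, averaged 6.83 ± 2.23 CPM in knockout and 6.09 ± 0.997 CPM in wild type, and its knockout libraries spread from 3.48 to 9.41 CPM.

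Nkx6-2, another homeobox gene of the lineage, was near the detection limit. Its counts were 11, 2, 5, 0 and 7 in the knockout libraries and 4, 8, 22, 3 and 1 in the wild-type libraries, in replicate order. Wild-type replicate 5 held the most and no comparison was made.

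Precursor genes differed in how much they varied, from 1.25-fold between the lowest and the highest library for Pdgfra and Ptprz1 to 1.66-fold for C1ql1. Pdgfra, the growth factor receptor gene that defines the stage, stood at 148, 185, 182, 165 and 154 CPM in the knockout libraries and at 161, 180, 169, 182 and 180 CPM in the wild-type libraries. The 2 lowest values were those of knockout replicates 1 and 8 (log2 fold change -0.06, SE 0.058, edgeR adjusted p = 0.85). Ptprz1, a receptor phosphatase gene shared with astrocytes and their progenitors, had the highest CPM of the members, with 876 ± 78.6 CPM in knockout and 895 ± 39.4 CPM in wild type. Cspg4, which encodes the NG2 proteoglycan and is also made by pericytes, averaged 33.4 ± 3.91 CPM in knockout and 32.1 ± 2.89 CPM in wild type.

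Lhfpl3 (39.9 ± 5.46 CPM in knockout, 41.3 ± 5.03 in wild type), C1ql1, a gene for a secreted C1q-like protein (18.5 ± 3.82 in knockout, 17.7 ± 2.53 in wild type), and the sialidase gene Neu4 (8.35 ± 1.42 in knockout, 8.22 ± 1.05 in wild type) likewise had fold changes smaller than their spread between libraries. Of the 6 precursor genes, 3 had a fold change above 0 and 3 below, with a median of -0.003 on the log2 scale. The sign of these small fold changes was not fixed by the data: those of Sox10, Lhfpl3, C1ql1, Ptprz1 and Neu4 turned when some single library was left out.

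All 3 genes of newly formed oligodendrocytes had a fold change above 0, none past the test. Gpr17, an orphan receptor gene that holds cells in the premyelinating state, was measured at 166, 147, 156, 173 and 140 CPM in the knockout libraries and at 134, 146, 160, 154 and 133 CPM in the wild-type libraries. The groups overlapped, with knockout replicates 6 and 1 highest and wild-type replicates 7 and 2 lowest (log2 fold change 0.10, SE 0.06, edgeR adjusted p = 0.68). Bcas1, an early myelin-associated gene, averaged 41.5 ± 7.20 CPM in knockout and 39.0 ± 2.94 CPM in wild type. Enpp6, a choline phosphodiesterase gene switched on as precursors differentiate, averaged 9.05 ± 1.65 CPM in knockout and 7.87 ± 1.04 CPM in wild type (log2 fold change 0.20, SE 0.144, edgeR adjusted p = 0.78). Knockout replicate 6 was the highest of the 10 libraries for Gpr17, Bcas1 and Enpp6 alike. Without it the fold change of Bcas1 was -0.005 and that of Enpp6 0.09 on the log2 scale.

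Among the structural myelin genes the libraries of each genotype differed widely from one another. Mbp, which encodes the basic protein that compacts the myelin sheath, stood at 145, 119, 108, 145 and 155 CPM in knockout replicates 1, 3, 5, 6 and 8, against 113, 122, 181, 121 and 110 CPM in wild-type replicates 2, 4, 5, 6 and 7. Wild-type replicate 5 was the highest and knockout replicate 5 the lowest of all 10. Means were 134 ± 19.8 CPM in knockout and 129 ± 29.4 CPM in wild type (log2 fold change 0.06, SE 0.165, edgeR adjusted p = 0.97).

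Cnp, whose product keeps cytoplasmic channels in the sheath open, ranged over 1.47-fold, against 1.68-fold for Mbp. Its levels were 82.0, 80.6, 68.0, 96.3 and 90.3 CPM in the knockout libraries and 74.8, 77.9, 99.8, 79.0 and 71.8 CPM in the wild-type libraries (log2 fold change 0.05, SE 0.099, edgeR adjusted p = 0.95). The same library, wild-type replicate 5, was again highest, and knockout replicate 5 lowest.

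The adhesion and late sheath genes showed the largest spread. Mag, the gene of a glycoprotein facing the axon, was measured at 6.10, 4.36, 1.65, 4.95 and 7.94 CPM in the knockout libraries and at 3.67, 3.92, 8.33, 5.17 and 3.10 CPM in the wild-type libraries, a 5.04-fold range over the 10. Mobp, which encodes a small basic protein of compact myelin, stood at 7.78, 2.92, 2.45, 6.23 and 9.67 CPM in the knockout libraries and at 1.26, 2.47, 8.16, 5.21 and 1.12 CPM in the wild-type libraries, an 8.65-fold range. Each genotype thus held libraries with high and libraries with low levels of both genes. The fold changes could not be told from 0 against that spread (Mag log2 fold change 0.06, SE 0.379, edgeR adjusted p = 0.99; Mobp 0.68, SE 0.635, edgeR adjusted p = 0.86). Leaving out wild-type replicate 5 raised the log2 fold change of Mobp to 1.19, and leaving out knockout replicate 8 gave 0.42.

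Mog, the gene of an outer sheath glycoprotein and a late marker, came nearest to the threshold among the members higher in knockout. It was measured at 5.92, 5.41, 3.85, 5.34 and 6.65 CPM in the knockout libraries and at 4.25, 4.51, 5.21, 2.61 and 4.32 CPM in the wild-type libraries. 4 of the 5 knockout libraries were above every wild-type library, and knockout replicate 5 was below 4 of them. Means were 5.43 ± 1.03 CPM in knockout and 4.18 ± 0.96 CPM in wild type, with a log2 fold change of 0.39 and an SE of 0.192, short of the threshold (edgeR adjusted p = 0.58).

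**Figure D3:**
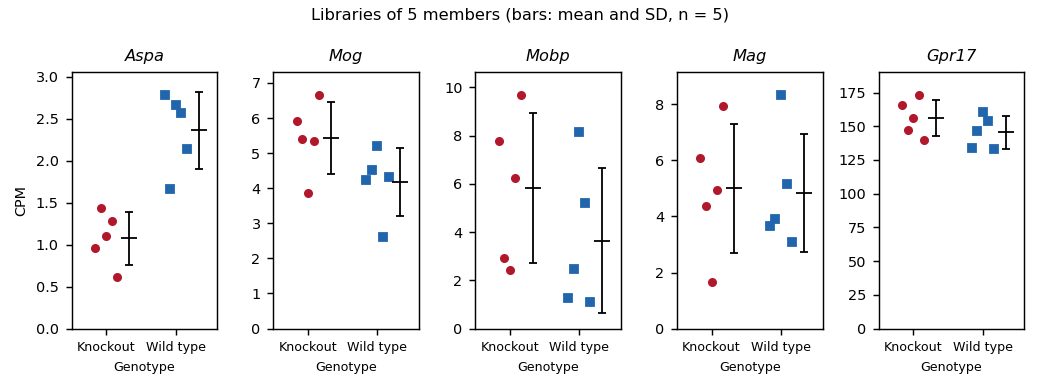
CPM of 5 members in each library, with knockout libraries (red circles) left of wild-type libraries (blue squares) and black bars for the mean and SD of 5 libraries. For Aspa the highest knockout library lies at 1.43 CPM, below the lowest wild-type library at 1.66 CPM; the groups overlap for Mog, Mobp, Mag and Gpr17.

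Aspa was the member with the largest fold change and the smallest p. It encodes aspartoacylase, which splits N-acetylaspartate and so releases acetate that oligodendrocytes use for lipid synthesis. Its level was 0.957, 1.43, 1.10, 1.28 and 0.615 CPM in the knockout libraries, against 2.78, 1.66, 2.66, 2.56 and 2.14 CPM in the wild-type libraries. All 5 knockout libraries were below all 5 wild-type libraries, as was so in one direction or the other for 1.82% of all tested genes. The means were 1.08 ± 0.315 CPM in knockout and 2.36 ± 0.459 CPM in wild type, a fold of 0.459 with a 95% interval from 0.297 to 0.708.

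The difference did not pass the threshold over all genes (log2 fold change -1.13, SE 0.307, edgeR unadjusted p = 0.000966, adjusted p = 0.126), and with DESeq2 it did (adjusted p = 0.027, log2 fold change -1.13). Over all alternatives that tested it, its adjusted p ran from 0.027 with DESeq2 to 1. The value rests on few reads, 11 to 26 counts in the knockout libraries and 31 to 57 counts in the wild-type libraries. The summed level of the choroid plexus and ependymal markers was likewise lower in every knockout library than in any wild-type library, and 4 of the 14 markers tested did not overlap one by one. With their mean level as a covariate the log2 fold change of Aspa was -1.72 (edgeR adjusted p = 0.61), and with that of the striatal markers -1.40 (adjusted p = 1). Their part in the result was not tested.

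Start-site sequence is shown for 3 myelin members of contrasting behaviour: Cnp, of the highest level among the myelin members, Mobp, the most variable tested member, and Aspa, with the largest difference between genotypes. The windows run from 250 bases before to 50 bases after the annotated start in the direction of transcription, and come from RefSeq on GRCm38.p6 (Cnp at chr11:100574689-100574988 on the plus strand, Mobp at chr9:120149492-120149791 on the plus strand, Aspa at chr11:73324588-73324887 on the minus strand). Capitals mark a SOX core (ACAAAG or ACAATG), the kind of motif that Sox10 can bind, or an E-box (CANNTG), the kind that Olig proteins can bind, on either strand.
Cnp: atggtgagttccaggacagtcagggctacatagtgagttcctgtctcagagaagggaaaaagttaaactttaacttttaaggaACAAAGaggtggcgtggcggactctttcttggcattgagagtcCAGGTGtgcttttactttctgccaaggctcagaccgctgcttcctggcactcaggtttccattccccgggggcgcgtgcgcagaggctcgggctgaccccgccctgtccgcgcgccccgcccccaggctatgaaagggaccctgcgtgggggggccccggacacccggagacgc
Mobp: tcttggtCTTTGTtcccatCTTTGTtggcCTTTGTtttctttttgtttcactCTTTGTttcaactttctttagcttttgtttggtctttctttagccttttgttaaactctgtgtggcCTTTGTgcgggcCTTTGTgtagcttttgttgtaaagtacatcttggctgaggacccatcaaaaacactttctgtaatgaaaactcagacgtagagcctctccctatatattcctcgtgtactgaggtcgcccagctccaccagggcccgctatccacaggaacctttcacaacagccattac
Aspa: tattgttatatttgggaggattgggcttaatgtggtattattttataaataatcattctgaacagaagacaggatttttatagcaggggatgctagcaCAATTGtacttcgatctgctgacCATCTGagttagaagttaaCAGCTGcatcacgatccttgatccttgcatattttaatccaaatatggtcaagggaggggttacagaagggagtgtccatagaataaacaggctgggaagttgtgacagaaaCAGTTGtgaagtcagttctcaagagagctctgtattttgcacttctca

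The Cnp window held 1 SOX core and 1 E-box, that of Mobp 6 SOX cores and 0 E-boxes, and that of Aspa 0 SOX cores and 4 E-boxes. 24 of the 32 members had a window in the RefSeq table, 27 windows in all. A SOX core was found in 40.7% of these and in 28.6% of the 32851 windows of all genes, and an E-box in 63.0% of these and in 72.3% of all. A match describes the letters of the window and does not show that a factor binds there.

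None of the remaining myelin members passed the edgeR test. Among genes of sheath lipids and membranes, Ugt8a, which makes galactosylceramide, averaged 12.5 ± 1.88 CPM in knockout and 12.2 ± 1.93 CPM in wild type, and Fa2h, which hydroxylates its fatty acids, 2.99 ± 0.84 CPM in knockout and 3.47 ± 1.12 CPM in wild type. Mal, a proteolipid gene of lipid rafts, averaged 2.68 ± 0.671 CPM in knockout and 2.26 ± 0.653 CPM in wild type. Cldn11, the tight junction gene of the sheath, averaged 16.2 ± 2.06 CPM in knockout and 15.4 ± 1.17 CPM in wild type. Gjc3, a connexin gene, stood at 6.76 ± 2.23 CPM in knockout and 7.46 ± 0.978 CPM in wild type, with knockout replicate 5 alone at 3.24 CPM. These genes divide between both signs of fold change, from -0.21 for Fa2h to 0.25 for Mal on the log2 scale.

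Myrf, the transcription factor gene that drives terminal differentiation, averaged 8.38 ± 1.02 CPM in knockout and 7.79 ± 1.51 CPM in wild type (log2 fold change 0.10, SE 0.147). Gpr37, a receptor gene known to restrain oligodendrocyte differentiation in mice, averaged 23.7 ± 3.39 CPM in knockout and 22.1 ± 0.792 CPM in wild type, and Tmem88b, a little-studied transmembrane gene, 4.05 ± 0.431 CPM in knockout and 3.59 ± 0.818 CPM in wild type. Sirt2, a deacetylase gene that neurons also express, had 102 ± 5.25 CPM in knockout and 105 ± 5.16 CPM in wild type. Tspan2, a tetraspanin gene, had 54.6 ± 2.00 CPM in knockout and 56.3 ± 3.64 CPM in wild type. Sirt2 and Tspan2 were the steadiest members, with 1.18-fold between the lowest and the highest library for each.

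The latest markers were barely detected. Opalin had 2, 0, 0, 0 and 1 counts in the knockout libraries and 0, 0, 6, 0 and 0 counts in the wild-type libraries, so that its reads came from knockout replicates 1 and 8 and wild-type replicate 5. Ermn had 7, 4, 3, 7 and 10 counts in the knockout libraries and 8, 9, 8, 8 and 14 counts in the wild-type libraries. Neither level was compared between the genotypes.

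The libraries high in any of the myelin genes Mbp, Cnp, Mag and Mobp were mostly high in the others of this set. Across the 10 libraries, log2 CPM of Mbp correlated with that of Cnp (Pearson r = 0.92, Spearman rho = 0.92), Mag (r = 0.86, rho = 0.94) and Mobp (r = 0.85, rho = 0.92). The permutation p-values of Pearson's r, adjusted over 7 relations, were 0.00042 for Cnp and Mag and 0.00126 for Mobp, and those of Spearman's rho 0.0014 for all 3. The relations were picked with the values known, so these p-values are descriptive only. Of the other myelin members only Mog was correlated with Mbp, and not all of them moved with Mbp. Gpr37, for example, was highest in knockout replicate 5, the library lowest in Mbp. Without knockout replicate 8 and wild-type replicate 5, the libraries farthest from the median of Mbp, r was 0.87 for Cnp, 0.76 for Mag and 0.85 for Mobp. The relation was weaker with Mog (r = 0.57, adjusted permutation p = 0.082; rho = 0.66, adjusted permutation p = 0.0625; r = 0.50 without those libraries).

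Of the precursor and premyelinating genes only Pdgfra and Gpr17 were correlated with Mbp, and neither relation passed the threshold. The other genes of these stages were not examined in this way. The correlation with Mbp was -0.57 for Pdgfra (adjusted permutation p = 0.116; rho = -0.61, adjusted permutation p = 0.0759) and 0.49 for Gpr17 (adjusted permutation p = 0.155; rho = 0.43, adjusted permutation p = 0.221). Without the same pair of libraries r was -0.66 for Pdgfra and 0.78 for Gpr17. All 7 relations were chosen after the values were seen, as was a repeat with each genotype centred on its own mean. In that repeat r was 0.92 for Cnp, 0.87 for Mag, 0.88 for Mobp, 0.59 for Mog, 0.47 for Gpr17 and -0.56 for Pdgfra.

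The biological coefficient of variation estimated by edgeR, which is the spread between libraries of a genotype beyond counting error, was 0.682 for Mobp, 0.404 for Mag and 0.179 for Mbp, against 0.179, 0.175 and 0.067 for genes of the same abundance, more than 2 times that trend for these 3 members. 0.0646% of all tested genes had a larger coefficient than Mobp and 0.956% a larger one than Mag. Cnp was the other member above 1.5 times its trend (0.108 against 0.068), and 13 members lay below it, among them the myelin members Sirt2 (0.062 against 0.068) and Tspan2 (0.065 against 0.072). Pdgfra and Olig1, at 0.071 and 0.067, stood close to their trend of 0.068 each.

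**Figure D4:**
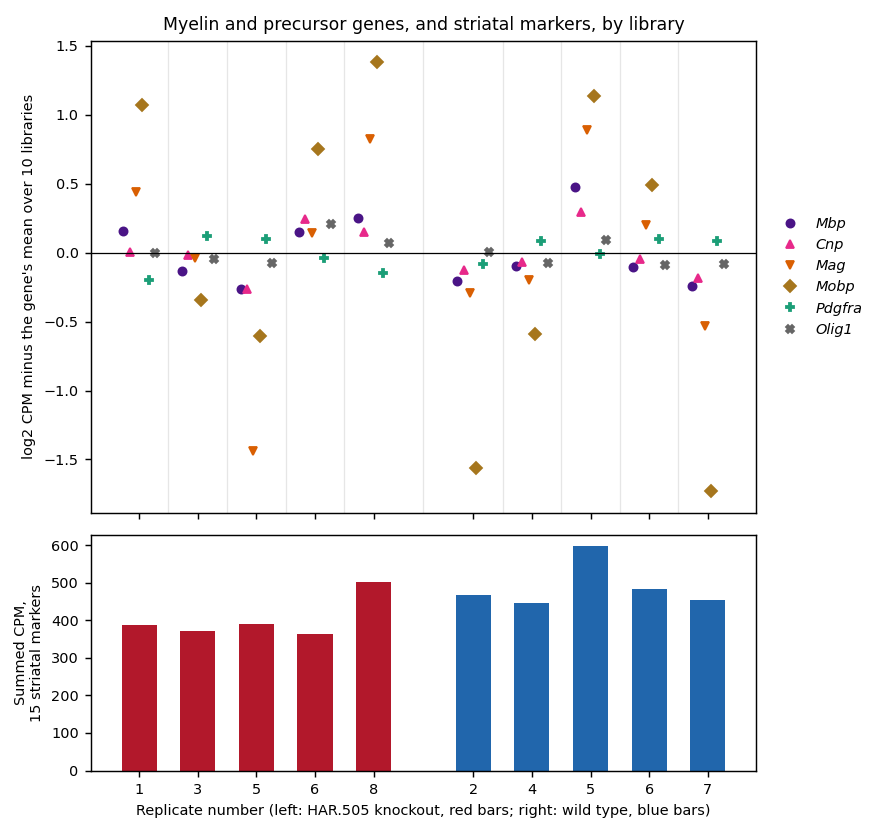
Upper panel: log2 CPM of 4 myelin genes (Mbp, Cnp, Mag, Mobp) and 2 precursor-stage genes (Pdgfra, Olig1) in each library, minus the mean of the gene over the 10 libraries. Lower panel: summed CPM of 15 striatal markers, with knockout libraries on the left and wild-type libraries on the right. Mbp, Mag and Mobp lie above 0 in knockout replicates 1, 6 and 8 and in wild-type replicate 5, where the striatal sum reaches 598 CPM. Mag and Mobp also lie above 0 in wild-type replicate 6. Cnp is highest in wild-type replicate 5 and knockout replicates 6 and 8. Pdgfra and Olig1 range over 1.25-fold and 1.23-fold, against 1.47-fold for Cnp.

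Striatal markers moved with part of this pattern. Their summed level was highest in wild-type replicate 5 (598 CPM), and knockout replicate 8, with 502 CPM, was the highest of its genotype. Both were the highest of their genotype for Mbp, Mag and Mobp too. Knockout replicates 1 and 6, also high in these genes, had striatal sums of 387 and 364 CPM, below every wild-type library. The part of neighbouring tissue in the spread of the myelin genes was not tested. Markers of Schwann cells, which make myelin in peripheral nerves, gave little signal: Pmp2, a lipid-binding protein gene of peripheral myelin, had 3 counts over all 10 libraries, and Foxd3, a gene of neural crest cells, had 0. The 7 Schwann cell markers summed to 5.14 to 7.54 CPM in knockout and 5.15 to 8.69 CPM in wild-type libraries, mostly from Prx and Egr2, which other cells also express.

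Other precursor, newly formed and myelin genes, and genes of signals and brakes on differentiation, were measured alike. In bulk cortex their reads can come from any cell type. Of 143 further genes in 4 lists, 133 were tested and none passed the edgeR test after adjustment. An unadjusted p under 0.05 was found for 15 of the 133 (7 higher and 8 lower in knockout), against 1349 of all 15488 tested genes (8.71%). With DESeq2, 2 of the 133 passed after adjustment, Zfp365 and Tppp3, against 124 of all 15488 tested genes, and with limma-voom 0 of the 133. In the list of other precursor genes (25 tested, median log2 fold change 0.01), the smallest p-values were those of Kcnip3, a calcium-binding protein gene (58.4 ± 6.10 CPM in knockout, 51.7 ± 2.31 in wild type), and Cacng4, a gene for an AMPA receptor auxiliary subunit (166 ± 14.6 CPM in knockout, 182 ± 4.60 in wild type). In the list of other newly formed genes (24 tested, median -0.03), they were those of Zfp365 (181 ± 13.7 CPM in knockout, 155 ± 11.1 in wild type, edgeR adjusted p = 0.066) and Frmd4a (144 ± 9.67 CPM in knockout, 157 ± 3.06 in wild type, edgeR adjusted p = 0.40).

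In the list of other myelin genes, 41 of 48 entries were tested with a median log2 fold change of 0.03. Tppp3, a tubulin-binding protein gene, averaged 39.0 ± 2.30 CPM in knockout and 49.1 ± 6.74 CPM in wild type (edgeR adjusted p = 0.069). Its relative Tppp, which nucleates microtubules along myelin sheaths, averaged 190 ± 15.6 CPM in knockout and 166 ± 5.05 CPM in wild type (edgeR adjusted p = 0.13). These 2 relatives thus had fold changes of opposite sign, neither past the threshold with edgeR. Summed choroid plexus and ependymal markers were, like Tppp3 on average, lower in knockout, in every knockout library than in any wild-type library. Their part in the value of Tppp3 was not tested.

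Among 43 tested genes of signals and brakes on differentiation, the median log2 fold change was -0.04 and 31 were below 0. Of all 15488 tested genes 7878 were below 0. The list holds both signals and brakes, so a shared sign has no single meaning. Id4, which encodes an inhibitor of helix-loop-helix factors, averaged 39.6 ± 3.90 CPM in knockout and 47.1 ± 4.87 CPM in wild type (edgeR adjusted p = 0.24). Rxrg, a retinoid receptor gene that striatal neurons also express, averaged 7.60 ± 2.10 CPM in knockout and 10.6 ± 1.45 CPM in wild type (edgeR adjusted p = 0.30). Summed striatal markers were lower in 4 of the 5 knockout libraries than in any wild-type library, and their part in the value of Rxrg was not tested.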

How the data were processed

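The authors deposited 1 table of unnormalized gene counts under Entrez identifiers. HISAT2, featureCounts and the mm39 build are named in the submitters' processing notes; no version, annotation or strand setting is given in the sources used here. Whether reads from overlapping genes were told apart by strand is therefore not known. In the GENCODE M21 annotation of GRCm38, 15 members overlap a gene on the opposite strand, among them Cnp, Gpr17, Mbp, Sirt2 and Ermn. Symbols came from RefSeq and matched 30648 of 30935 identifiers.

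Counts were fitted in R 4.3.3 with edgeR 4.0.16 (filterByExpr, TMM factors, robust quasi-likelihood F test, genotype as the sole term, two-sided). P-values were adjusted with the Benjamini-Hochberg method over 15488 genes, with a threshold of 0.05, and standard errors come from the F statistic. Exon lengths for CPM per kilobase are GENCODE M21 exons merged over all annotated transcripts of a gene, on a build other than that of the counts. A gene with several transcripts can be divided by a length greater than that of the transcript present. These levels and their ranks are therefore approximate. DESeq2 1.42.0 and limma 3.58.1 (voom) were alternatives. Correlations used 100000 permutations in scipy 1.17.1. Libraries of 1 genotype differed by more than sampling noise (chi-square per degree of freedom 4.10 to 13.9 over 20 pairs), so each counted as 1 replicate. The series calls the samples independent.

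All 32 members are named. From the 4 related lists, genes past the threshold and otherwise the 2 with the smallest p of each list are named. Counts, sums and adjustments include 2 genes that are not reported here. The members and lists were chosen with earlier results of these data known. The fit was tested on simulated counts with known fold changes.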

Additional observations from a re-analysis of the deposited data

Results flagged for a closer look

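In each group of 5 libraries, the highest or lowest value was compared with its nearest neighbour by Dixon's criterion, in 72 groups: each genotype for the 32 members, 1 related gene and the 3 stage medians. 3 groups held a value that stood apart, where chance gives about 1 in 20, and each was the high value of wild-type replicate 5. Mbp had 181 CPM there, with the other wild-type libraries at 110 to 122 CPM. Cnp had 99.8 CPM there, with the others at 71.8 to 79.0 CPM. Opalin had 0.347 CPM there (6 counts), with the others at 0, a pattern in which any value above 0 stands apart by this criterion. Wild-type replicate 5 also had the highest summed level of striatal markers (598 CPM), and the part of these markers in the 3 values was not tested.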

How the results depend on the processing

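The count of 0 members past the test was the same under RLE and upper quartile normalization, no filter, at least 50 counts in 5 libraries, limma-voom, an adjusted p under 0.1, the striatal and choroid covariates, the fit without knockout replicates 3, 5 and 6, and each library left out in turn. With DESeq2 it was 1, Aspa (adjusted p = 0.0273); over the other alternatives that tested Aspa its edgeR or limma adjusted p ran from 0.0567 without a filter to 1, and over fits leaving out 1 library from 0.141 to 0.362 (log2 fold change -1.25 to -0.97). The cause was not tested. With at least 50 counts in 5 libraries Aspa was not tested. Calls over all 15488 genes ran from 0 with the choroid covariate, 1 with the striatal covariate, 27 with the replicate block and 44 with limma-voom to 124 with DESeq2, and reached 171 of 23319 genes without a filter, against 59. They were 12 without knockout replicates 3, 5 and 6, and moved by over 1.5 times in 6 fits leaving out 1 library: 17 without knockout replicate 3, 37 without knockout replicate 6, 182 without knockout replicate 8, 15 without wild-type replicate 2, 21 without wild-type replicate 4 and 17 without wild-type replicate 5.

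The median log2 fold change of the myelin members was 0.06, and 0.26 with the striatal covariate. It was -0.12 with the replicate block, which compares the genotypes through replicates 5 and 6 alone. That of the newly formed members was 0.10, and 0.21 with the choroid covariate. Leaving out 1 library gave 0.00 to 0.11 for the myelin, 0.06 to 0.15 for the newly formed and -0.01 to 0.07 for the precursor-stage members. Without division by length, stage medians were 6.47 CPM in knockout and 6.36 CPM in wild type (myelin), 41.5 CPM in knockout and 39.0 CPM in wild type (newly formed), and 35.4 CPM in knockout and 34.2 CPM in wild type (precursor stage).

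The sign of 11 members turned when 1 library was left out: Sox10 (-0.015 to 0.111), Lhfpl3 (-0.112 to 0.020), C1ql1 (-0.062 to 0.131), Ptprz1 (-0.063 to 0.018), Neu4 (-0.068 to 0.099), Bcas1 (-0.005 to 0.151), Mag (-0.170 to 0.336), Cnp (-0.006 to 0.140), Ugt8a (-0.056 to 0.124), Cldn11 (-0.003 to 0.113) and Gjc3 (-0.278 to 0.035), all log2 fold changes that passed no test.

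Replicate numbers 5 and 6 occur in both genotypes. Deviations of same-numbered libraries correlated at -0.03 and -0.06, so the numbers were not taken as pairs. With the replicate block 0 members passed the edgeR test (smallest adjusted p = 0.30). That fit compares the genotypes through replicates 5 and 6 alone, since no other number occurs in both. None of its values can therefore check the remaining libraries. Depth limits Aspa, Opalin, Ermn and Nkx6-2 most.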
